A study of Homo sapiens with 18 samples.

Results

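The cytosolic ribosomal protein genes were followed in SH-SY5Y cells carrying ZNHIT3 constructs, before and after neuronal differentiation. Members were chosen by symbol alone: RPL or RPS with a number and at most an A, X or L suffix and a further digit, plus RPSA, RPLP0, RPLP1 and RPLP2. The rule gave 84 of the 26372 gene symbols in the table, 52 of the large and 32 of the small ribosomal subunit. Of these, 81 had a mean level of at least 1 FPKM (fragments per kilobase of transcript and of sequencing depth) over all libraries and were tested, which is 49 large and 32 small subunit genes. RPL21, RPL3L and RPL10L were below that level. FAU, whose product carries a ribosomal protein fused to a ubiquitin-like protein, and RPL36AL fell outside the rule.

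RNA-seq was made from SH-SY5Y, an established human neuroblastoma line, in 6 groups of 3 libraries. Cells were infected with a lentivirus built on the FUGW plasmid that carried ZNHIT3, which encodes a small zinc-finger protein of snoRNP assembly, as wild type (WT), as C14R or with a deletion. The deletion is labelled as starting at position 251 and ending at 254, 255 or 256 in replicates 1, 2 and 3. Libraries of each construct were taken at day 0 and after 18 days in serum-free medium with BDNF, KCl, dibutyryl cyclic AMP and retinoic acid. All groups were infected, and the labels name no uninfected control. The titles call the deletion libraries "Depleted", and beyond that word the labels name no removal of the cells' own ZNHIT3. They also do not say whether infected cells were cloned or pooled, or whether replicates were separate cultures, so p-values measure the spread between libraries, which may be technical.

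A ribosome needs equal numbers of nearly all of its proteins, each built into the small subunit, which reads the mRNA, or the large subunit, which forms the peptide bond. Vertebrate mRNAs for these proteins begin with a C followed by a run of pyrimidines, the 5′ terminal oligopyrimidine (TOP) tract, through which mTOR and LARP1 control their translation as a class. The genes are among the most highly expressed in dividing cells, and MYC is a known activator of many of them. A few have paralogs with an L in the symbol, whose products can replace the parent protein in the ribosome or have tissue-restricted expression.

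Relative depth, read from the spacing of low FPKM values, was 58.9% to 84.6% of the deepest library at day 0 and 82% to 100% at day 18. ZNHIT3 itself had 538 ± 6.33 FPKM in WT, 424 ± 7.09 in C14R and 303 ± 9.4 in deletion at day 0, and 1153 ± 46.1, 653 ± 88.9 and 302 ± 9.89 at day 18 (SD, n = 3), with the constructs and the cells' own gene counted together. All 11 tested neuronal markers rose in each construct, and their summed FPKM went from a range of 1101 to 1149 to a range of 2367 to 2608. All 18 proliferation genes fell, from sums of 659 to 708 to sums of 224 to 290. All 10 tested markers of the mesenchymal, substrate-adherent phenotype of neuroblastoma cultures fell too, from 1093 to 1286 to 163 to 181. Of the noradrenergic markers of the line, PHOX2A and DBH were present at both days, and TH was under 0.1 FPKM in the day 0 group means. This list was split: of 9 tested, 3, 4 and 4 rose in WT, C14R and deletion at a limma adjusted p under 0.05. In each construct 4 fell, and in WT the log2 changes ran from -3.60 to 2.78. Of all tested genes, 38.2%, 37.9% and 38.6% rose and 34%, 35% and 34.4% fell. In bulk RNA, fewer cells of a type and less RNA per cell cannot be told apart. C14R replicate 1 of day 18 stood apart among the members. Their log2 deviations from the group mean had an SD of 0.16 in it, against 0.02 to 0.09 in the other 17 libraries, and among the 9 day 18 libraries it was the highest for 29 members and the lowest for 20. Log2 differences of named members that moved by over 1.5 times without it are given both ways.

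The sequences around the transcription start show the class signature in most members with a window, although the rule used symbols only. Windows of 30 bases, 15 before and 15 from the RefSeq gene start on (GRCh38.p14), were available for 67 members. A single start per gene was read, and other starts of a gene were not looked at. A run of at least 8 C or T on the gene's strand that covers the start was present in 41 of them (61.2%), against 4.66% of all 27305 promoters in the table, 5.2% of those of tested genes and 2.94% of those of mitochondrial ribosomal protein genes. The letters CTTTC were found in 40.3% of member windows on the gene's strand and 1.49% on the other strand, against 4.18% and 3.17% of all promoters. The windows below belong to the members whose values are followed most closely, with the longest run of C and T in capitals and the annotated start at base 16.
RPLP0, chr12:120201097-120201126 (- strand): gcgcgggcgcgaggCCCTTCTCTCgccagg
RPLP1, chr15:69452803-69452832 (+ strand): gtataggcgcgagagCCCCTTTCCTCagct
RPLP2, chr11:809952-809981 (+ strand): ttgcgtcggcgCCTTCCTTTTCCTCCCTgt
RPS19, chr19:41860240-41860269 (+ strand): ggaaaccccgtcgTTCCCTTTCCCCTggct
RPS29, chr14:49598696-49598725 (- strand): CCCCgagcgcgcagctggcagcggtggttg
RPL38, chr17:74203663-74203692 (+ strand): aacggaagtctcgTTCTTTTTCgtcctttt
RPL22, chr1:6199581-6199610 (- strand): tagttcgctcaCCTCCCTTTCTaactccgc
RPL22L1, chr3:170870181-170870210 (- strand): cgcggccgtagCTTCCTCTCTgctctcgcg
RPS27, chr1:153990747-153990776 (+ strand): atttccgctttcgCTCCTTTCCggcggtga
RPS27L, chr15:63157463-63157492 (- strand): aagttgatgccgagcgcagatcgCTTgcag
The 3 stalk genes, RPS19, RPL38, RPL22 and RPS27 carry runs of 9 to 17 bases over the start. RPL22L1 has a run of 10, whereas the longest runs of RPS27L and RPS29 measure 3 and 4. Of the 5 paralogs with a window, 1 had a run of 8 or more over the start.

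Levels spanned a wide range although the proteins are needed in equal numbers. FPKM is per transcript length, so levels can be compared between genes only with reservations. Very short transcripts are hard to scale, and the lengths behind the FPKM are not given in the sources used here. Annotated principal transcripts differ widely, with 359 bases for RPS27, 3647 for RPL37A and 7686 for RPL37, which had a mean of 213 FPKM. RPS27 was the highest member at a mean of 6782 FPKM over all libraries, followed by RPL37A at 3894 and RPL41, which encodes the smallest ribosomal protein, at 3609. RPS27 alone took 6.84% to 7.5% of the summed FPKM of members in every library. The lowest tested members were all paralogs: RPL39L at 13.4, RPL22L1 at 14.4, RPL26L1 at 42.5, RPL7L1 at 56.4 and RPS27L at 72.5 FPKM. The SD of log2 FPKM over tested members, paralogs included, was 1.61 to 1.64 in the day 0 libraries and 1.67 to 1.73 in the day 18 libraries. Across the 81 tested members, mean FPKM and the length of the principal transcript had a Spearman rho of -0.40, a description over genes measured in the same libraries. RPL10L, a testis-expressed copy of RPL10, was listed at 0 in every library, and RPL3L, a muscle-expressed copy of RPL3, reached at most 0.172. RPL21 lay between 0 and 2.56 FPKM. GENCODE names 66 pseudogenes after RPL21, and its pseudogene RPL21P28 was listed at 12 FPKM in WT at day 0 and 3.94 at day 18. Over the family, 1145 annotated pseudogenes carry the name of 77 members, and 31 such symbols were in the table, the highest being RPSAP58 at a mean of 16.8 FPKM. How the authors' counting split reads between members and such copies is not given in the sources used here.

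**Figure D1:**
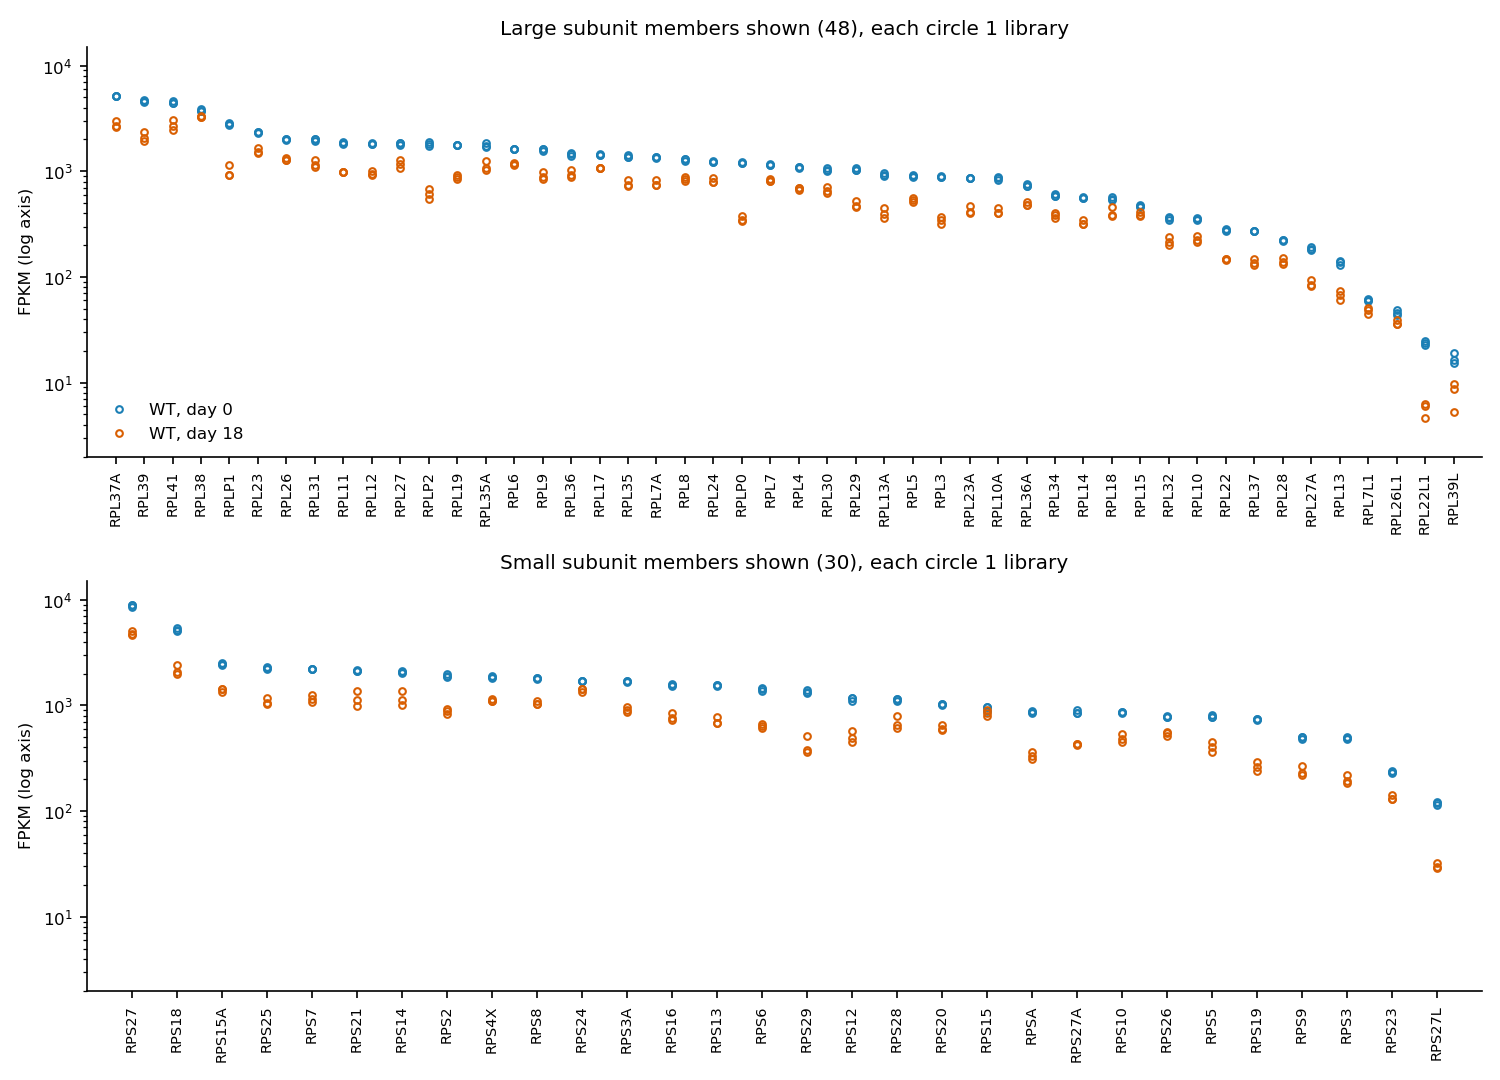
FPKM on a log axis of 78 of the 81 tested members in the 3 WT libraries of day 0 (blue circles) and the 3 of day 18 (orange circles), large subunit above and small subunit below, ordered by the day 0 mean. RPS27 is the highest gene at both days, and the day 18 circles lie below the day 0 circles for all genes shown but RPS15.

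With differentiation the whole class fell. Summed FPKM of members was 116673 to 125088 in the 9 day 0 libraries and 63952 to 72005 in the 9 day 18 libraries, without overlap. Their share of all FPKM outside small RNA genes was 26.9% to 28% at day 0 and 17.1% to 18.5% at day 18. The number of members above 1000 FPKM was 48 to 50 at day 0 and 22 to 27 at day 18. In limma's test over 13785 genes (adjusted p under 0.05), 81 of 81 tested members fell in WT, where 34% of all tested genes fell. In C14R 78 of 81 fell, where 35% of all tested genes fell, and in the deletion 81 of 81, where 34.4% fell. Of the members 0 rose in the 3 comparisons, also at an unadjusted p under 0.05, where 38.2%, 37.9% and 38.6% of all genes rose past the adjusted threshold. The median log2 change of members, on the log2(FPKM + 1) scale, was -0.86 in WT, -0.76 in C14R and -0.86 in the deletion, against 0.03, 0.02 and 0.03 for all tested genes. For 78 of the 81 members all 9 day 18 libraries lay below all 9 day 0 libraries, as they did for 26.9% of all tested genes. Proliferation and mesenchymal markers fell in the same comparison, as given above, and their part in the result was not tested.

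FPKM are shares of a library, and the size of the fall depended on the scaling. With small RNA genes left out and the libraries rescaled, the median of all genes became 0.21 in WT, 0.18 in C14R and 0.23 in the deletion, the members' median -0.65, -0.57 and -0.64, and 76, 73 and 77 members fell with 0 rising. Of all genes, 23.4%, 25% and 22.9% fell and 51.3%, 49.4% and 52.3% rose under that rescaling. Among all genes called in WT, the share that rose was 52.9% as deposited and 68.7% with that rescaling. Under quantile normalization, which forces all libraries to one distribution, 56, 54 and 58 members fell and 6, 10 and 9 rose. Of all genes, 35.9%, 36.8% and 36.7% then fell and 36.2%, 35.8% and 36.3% rose, and the members' median was -0.35, -0.30 and -0.32. Every tested member was below the median of all genes in all 3 constructs as deposited and with small RNA genes left out, whereas 67, 64 and 65 of 81 were below it under quantile normalization.

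**Figure D2:**
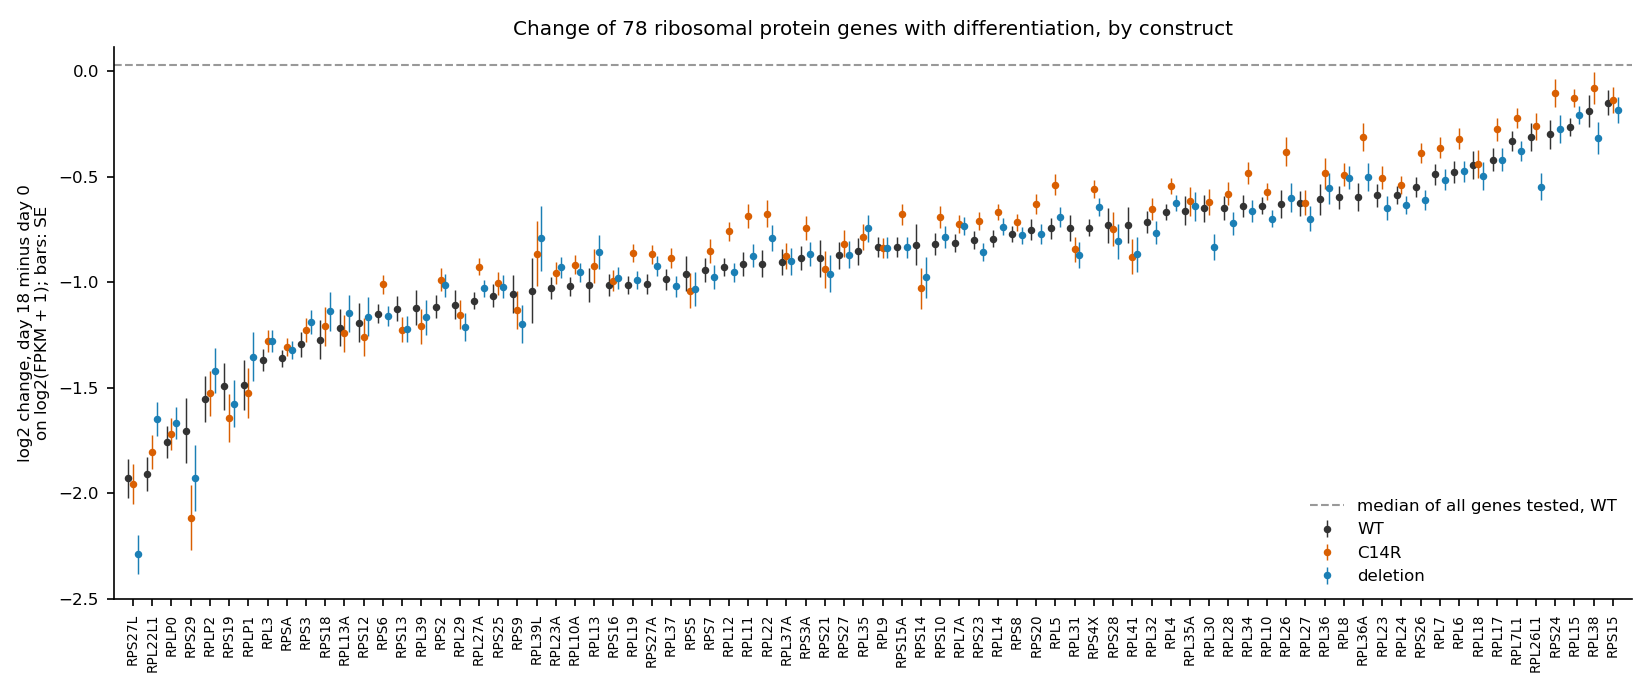
The log2 change from day 0 to day 18 (bars: SE) of 78 of the 81 tested members in WT, C14R and deletion cells, ordered by the change in WT, with the median of all tested genes in WT dashed. All points lie under the dashed line at 0.03, from -2.29 for RPS27L in the deletion to -0.08 for RPL38 in C14R.

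The stalk proteins, which form the flexible arm of the large subunit that recruits and activates the translation GTPases, were among the members that fell most. RPLP0, which anchors the stalk to the ribosome, had 1203, 1216 and 1195 FPKM in the WT libraries of day 0 and 380, 346 and 341 in those of day 18. The C14R libraries went from 1162, 1232 and 1191 to 305, 383 and 408, and the deletion libraries from 1220, 1190 and 1242 to 393, 379 and 375. All 9 day 18 libraries were far below all 9 day 0 libraries. The log2 change of RPLP0 was -1.76, -1.72 and -1.67 in WT, C14R and deletion (SE 0.08 each; limma adjusted p of 9.79e-13, 1.41e-12 and 1.87e-12), which left 29.5% to 31.4% of the day 0 mean. RPLP1, which binds RPLP0 as a dimer with RPLP2, was at 2841, 2780 and 2755 FPKM in WT at day 0 and at 1149, 921 and 926 at day 18. C14R had 2597, 2702 and 2679 and then 700, 1079 and 1041, and the deletion 2660, 2744 and 2883 and then 1100, 1077 and 1065. The days did not overlap, and the lowest value was that of C14R replicate 1. RPLP2 was at 1874, 1803 and 1731 FPKM in WT at day 0 and fell to 685, 614 and 547, with log2 changes of -1.55, -1.53 and -1.42 in WT, C14R and deletion (SE 0.11). All 3 stalk genes carry a pyrimidine run over the start in the windows above.

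Small subunit genes made up several of the other large falls. RPS29 went from 1312, 1405 and 1331 FPKM in the WT libraries of day 0 to 519, 379 and 358 in those of day 18. In C14R it went from 1228, 1482 and 1381 to 227, 342 and 394, and in the deletion from 1700, 1589 and 1581 to 426, 454 and 399. The lowest of the 18 values was again C14R replicate 1 of day 18, and the deletion libraries were the highest at day 0. Its log2 change was -1.70 in WT, -2.12 in C14R and -1.93 in the deletion (SE 0.15; limma adjusted p of 2.33e-08, 1.34e-09 and 4.49e-09), and -1.89 in C14R without that library. RPS19, a gene mutated in Diamond-Blackfan anaemia, had 747, 745 and 726 FPKM in WT at day 0 and 292, 259 and 238 at day 18. It fell by 1.49, 1.64 and 1.58 on the log2 scale in WT, C14R and deletion (SE 0.11), with no overlap of days. RPSA, a small subunit protein also known as the laminin receptor, had the smallest adjusted p of all members, 1.52e-14 in WT by limma. Its level in WT went from 873, 875 and 844 to 361, 334 and 313 FPKM, a change of -1.36 (SE 0.04).

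**Figure D3:**
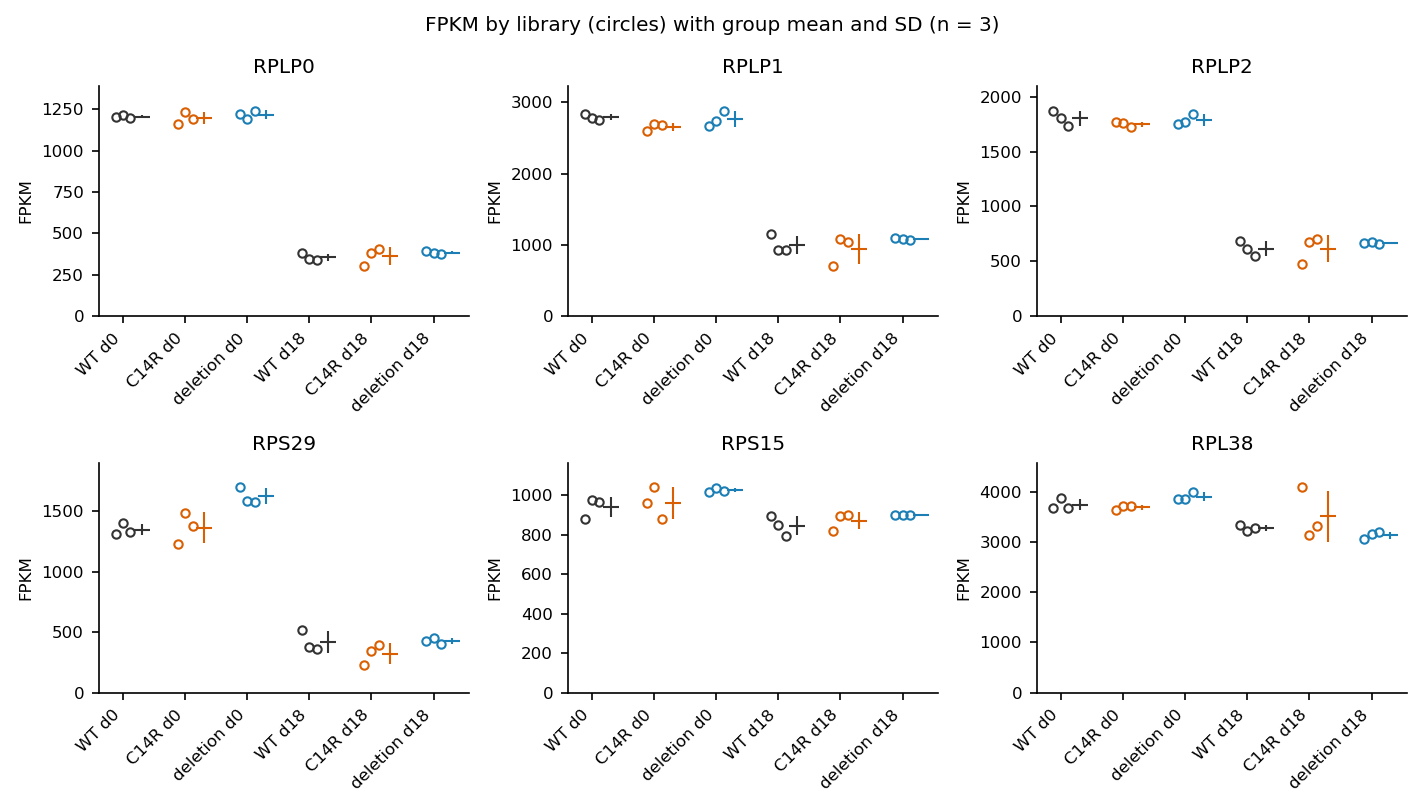
FPKM in each library (circles) with the group mean and SD (n = 3) for the stalk genes RPLP0, RPLP1 and RPLP2, for RPS29, and for the weakly changing RPS15 and RPL38, in the 6 groups (d0: day 0, d18: day 18). The days are separate for the first 4 genes and overlap for RPS15 and RPL38, where C14R replicate 1 of day 18 reaches 4095 FPKM for RPL38.

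Members known for roles beyond their place in the ribosome moved with the class. RPS6, the classical phosphorylation target below mTOR, was at 1372, 1431 and 1450 FPKM in WT at day 0 and at 662, 639 and 616 at day 18, a log2 change of -1.15 (SE 0.05). RPL5 and RPL11, which bind MDM2 and so raise p53 when ribosome assembly fails, changed by -0.75 (SE 0.05) and -0.91 (SE 0.06) in WT. RPL3, near the peptidyl transferase centre, fell by 1.37 and RPL10, among the last proteins to join the large subunit, by 0.64. RPS3, at the mRNA entry channel, fell by 1.30, and RPS26, which contacts the mRNA at the exit channel, by 0.55. RPS27A, translated as a fusion with ubiquitin, fell by 1.01. RPS14 fell by 0.82 and RPL41 by 0.73. These falls in WT all passed limma's test, with adjusted p between 2.11e-13 for RPL3 and 5.92e-07 for RPS14. Outside the rule, FAU changed by -0.50 and RPL36AL by -0.24 in WT.

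Of the tested members, 29 fell by at least 1 on the log2 scale in WT, and 20 did so in all 3 constructs. The 29 are 15 of 49 large and 14 of 32 small subunit genes. Besides the stalk genes, the paralogs and the members with values of their own, they include RPL13A, RPL29, RPL27A, RPL23A, RPL10A, RPL13 and RPL19 of the large subunit and RPS18, RPS12, RPS13, RPS2, RPS25, RPS9 and RPS16 of the small subunit. A further 26 large and 16 small subunit genes fell by 0.5 to 1, the least of them RPS26 at -0.55. The remaining 10, which fell by less than 0.5, are RPL7, RPL6, RPL18, RPL17, RPL7L1, RPL26L1, RPL15 and RPL38 of the large and RPS24 and RPS15 of the small subunit. The names in these bands follow from the bands and were read after the values were seen.

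The members with the smallest falls depended most on single libraries. RPS15, RPS24 and RPL15 are named here after their values were seen. RPS15, on chromosome 19, had 880, 974 and 964 FPKM in WT at day 0 and 895, 850 and 796 at day 18. The days overlapped in WT, and the change of -0.15 (SE 0.06, limma adjusted p = 0.036) was the smallest of the class there. In C14R, RPS15 changed by -0.14 (limma adjusted p = 0.0519). RPL38, a large subunit gene known from mouse for its effect on the translation of Hox mRNAs, was at 3682, 3875 and 3683 FPKM in WT at day 0 and at 3334, 3229 and 3280 at day 18. C14R had 3641, 3710 and 3721 and then 4095, 3133 and 3311, so that replicate 1 alone was above the day 0 libraries of its construct. The change of RPL38 in C14R was -0.08 (SE 0.08, limma adjusted p = 0.347), and -0.20 without that library (adjusted p = 0.0013). RPS24 in C14R went from 1745, 1629 and 1701 to 1824, 1440 and 1487 FPKM, a change of -0.10 (limma adjusted p = 0.178) that became -0.21 without replicate 1 (adjusted p = 0.000252). Without that library 80 of 81 members fell in C14R. RPL15 fell by 0.26 in WT, 0.13 in C14R and 0.21 in the deletion. The WT call of RPS15 was lost without day 0 replicate 2 or 3 or day 18 replicate 2 or 3 (limma adjusted p of 0.0651 to 0.161). That of RPL38 in WT was lost when any of the day 0 replicates, or day 18 replicate 2 or 3, was left out (0.0512 to 0.103), and that of RPL15 in C14R without day 18 replicate 2 (0.0858). RPS15 in C14R passed in 5 of the fits that left out a library, with the lowest adjusted p, 0.00965, without C14R day 0 replicate 3. The direction of these 4 genes turned upward under quantile normalization in all 3 constructs, and with small RNA genes left out RPS15 and RPL38 were above 0 in WT, all 4 in C14R, and RPS15 and RPL15 in the deletion, none past the threshold.

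The subunits fell unequally. The median log2 change of the 49 large subunit genes was -0.75 in WT, -0.68 in C14R and -0.77 in the deletion. For the 32 small subunit genes it was -0.95, -0.90 and -0.97. The ratio of summed large to summed small subunit FPKM, which does not depend on the scaling of a library, was 1.16 to 1.19 in the day 0 libraries and 1.27 to 1.32 in the day 18 libraries, without overlap. By group it was 1.17 ± 0.0083 in WT, 1.18 ± 0.012 in C14R and 1.18 ± 0.007 in the deletion at day 0, and 1.28 ± 0.0065, 1.29 ± 0.027 and 1.27 ± 0.0016 at day 18 (SD, n = 3). The highest ratio, 1.32, was that of C14R replicate 1. The constructs overlapped at day 0. At day 18 the WT libraries, at 1.28 to 1.29, all lay above the deletion libraries, and C14R overlapped with both. The ratio sums genes of very different levels and is given as a description.

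The fall was spread over the family. Members lie on 21 chromosomes, most on chromosomes 19 (12 genes) and 3 (9 genes). The 4 X-linked genes, RPL10, RPL36A, RPL39 and RPS4X, had a median log2 change of -0.69 in WT. Introns of 28 members hold 60 annotated snoRNA genes. The 27 tested hosts all fell in all 3 constructs, with medians of -0.99, -0.89 and -0.93, against -0.83, -0.74 and -0.84 for the 54 tested members without a snoRNA. The 40 tested members with a pyrimidine run over the start had a median of -0.91 in WT and ranged from -1.91 to -0.19, and the 25 without had -0.73 and ranged from -1.93 to -0.15. RPS29 and RPS27L, without such a run at the start read, were thus among the largest falls, and RPL38, with a run, among the smallest. Runs at other starts of these genes were not looked for. Across the 81 members, the change in WT had a Spearman rho of -0.02 with transcript length, 0.08 with the number of pseudogenes and 0.11 with mean FPKM, given as descriptions of genes that share the same libraries.

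The paralogs behaved unlike each other. RPL22L1, which is known to rise when RPL22 is lost, had 24.7, 22.8 and 23.8 FPKM in WT at day 0 and 6.3, 4.65 and 5.97 at day 18. RPL22 itself had 285, 277 and 273 and then 149, 146 and 147. Both fell, RPL22L1 by 1.91 (SE 0.08) and RPL22 by 0.91 (SE 0.06) on the log2 scale, so that RPL22L1 went from 8.54% ± 0.27 to 3.83% ± 0.56 of the RPL22 level in WT (SD, n = 3). It went from 8.11% ± 0.28 to 3.32% ± 0.53 in C14R and from 8.46% ± 0.27 to 4.25% ± 0.32 in the deletion. All 9 day 18 ratios were below all 9 day 0 ratios. Over the constructs the log2 ratio changed by -1.15 in an exact two-sided permutation test that permuted days within construct (p = 0.00025, the smallest its 8000 arrangements can give, adjusted p = 0.000417 over 5 pairs).
RPS27L, a p53 target, had 121, 118 and 114 FPKM in WT at day 0 and 32, 29.2 and 29.3 at day 18, the largest fall of the class there (-1.93, SE 0.09). Its fall was -1.96 in C14R and -2.29 in the deletion, where it went from 132, 123 and 124 to 21.6, 27.5 and 26.5 FPKM. Its parent RPS27 went from 8930, 8466 and 8999 to 5008, 4779 and 4626 FPKM in WT. The ratio to RPS27 was 1.34% ± 0.07 in WT, 1.27% ± 0.06 in C14R and 1.42% ± 0.09 in the deletion at day 0, and 0.63% ± 0.015, 0.57% ± 0.10 and 0.52% ± 0.05 at day 18 (SD, n = 3). The days did not overlap. The log2 ratio changed by -1.24 (exact permutation p = 0.00025, adjusted p = 0.000417).
RPL7L1, which acts in large subunit assembly, rose slightly against RPL7, from 5.24% ± 0.18 to 5.83% ± 0.25 in WT, 5.42% ± 0.03 to 5.96% ± 0.20 in C14R and 5.38% ± 0.24 to 5.88% ± 0.16 in the deletion. The difference was 0.14 on the log2 scale (exact permutation p = 0.00025, adjusted p = 0.000417). Its own level still fell, from 60.9, 59.6 and 61.8 to 51.1, 48.5 and 44.8 FPKM in WT. RPL26L1 went from 48.6, 46.1 and 43.9 to 39.6, 35.9 and 35.7 FPKM in WT. It went from 2.3% ± 0.09 to 2.86% ± 0.08 of RPL26 in WT, from 2.3% ± 0.11 to 2.5% ± 0.34 in C14R and from 2.62% ± 0.11 to 2.71% ± 0.32 in the deletion. The days overlapped in the variants. The log2 ratio differed by 0.15 (exact permutation p = 0.0205, adjusted p = 0.0256), and without C14R day 18 replicate 2 or deletion day 18 replicate 2 the adjusted p was 0.0575 and 0.0663. RPL39L, a copy of RPL39 best known from testis, was at 0.37% ± 0.03 of RPL39 at day 0 and 0.37% ± 0.08 at day 18 in WT, 0.41% ± 0.06 and 0.50% ± 0.05 in C14R, and 0.40% ± 0.04 and 0.50% ± 0.06 in the deletion. The difference of 0.19 on the log2 scale did not pass (exact permutation p = 0.0758, adjusted p = 0.0758). Without WT day 18 replicate 3, whose ratio of 0.27% was the lowest of all libraries, it was 0.26 (adjusted p = 0.00531), and without C14R day 0 replicate 2 it was 0.23 (adjusted p = 0.0415). Within single comparisons of 3 against 3 libraries the exact permutation test cannot go below p = 0.1, and the smallest adjusted p over 45 such tests of ratios was 0.265.

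**Figure D4:**
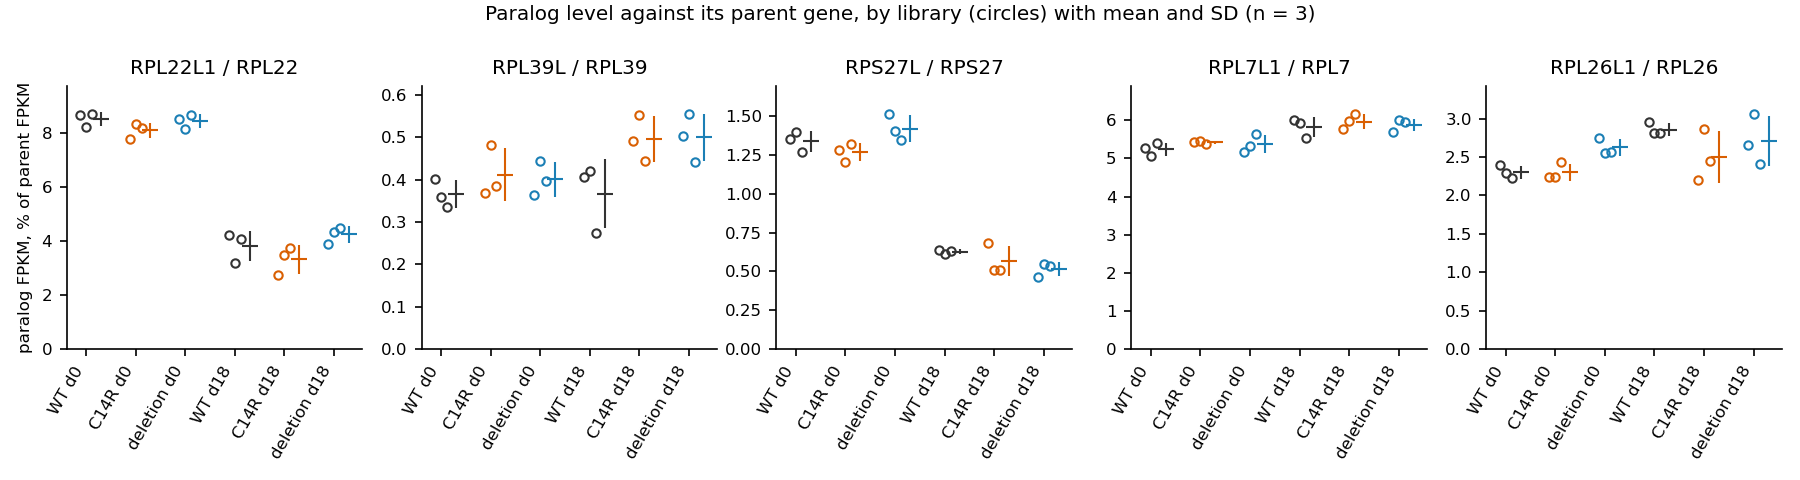
Paralog FPKM as a percentage of parent FPKM in each library (circles) with the group mean and SD (n = 3), for the 5 tested pairs in the 6 groups (d0: day 0, d18: day 18). RPL22L1 and RPS27L drop at day 18 in all constructs, and the group means of RPL7L1 and RPL26L1 are slightly higher. The days overlap for RPL26L1 in C14R and in the deletion, and for RPL39L in all constructs.

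Other genes of the translation machinery were taken from lists made for this comparison, to be read against the 34% to 35% of all tested genes that fell and the 37.9% to 38.6% that rose. Of 23 genes for translation factors and other known TOP mRNAs, 21, 21 and 20 fell in WT, C14R and deletion and 1 rose. Their medians were -0.76, -0.70 and -0.75, and in WT the changes ran from -3.49 to 0.81. The smallest limma adjusted p of this list equalled that of the mesenchymal markers in all 3 constructs, so those lists may share a gene. The elongation factor gene EEF1A1 fell by 0.77 in WT, from a mean of 2443 to 1433 FPKM, EEF1G by 0.57 and HNRNPA1 by 0.66. EIF4A2, an RNA helicase subunit of the cap-binding complex, was the gene that rose, by 0.81 in WT. Of 77 mitochondrial ribosomal protein genes 55, 56 and 61 fell and 2, 3 and 3 rose, with medians of -0.40, -0.37 and -0.41. Whether the cytosolic and mitochondrial sets differ was not tested. Of 11 regulators of TOP mRNAs and of ribosomal protein transcription, 9, 9 and 8 fell and 0 rose. LARP1, which binds the cap and the tract of TOP mRNAs, fell by 0.19 in WT, EIF4EBP2, an mTOR-controlled repressor of the cap-binding protein, by 0.17, and its relative EIF4EBP1 by 1.20. MYC went from 20.8 ± 1.52 FPKM in WT at day 0 to 0.45 ± 0.13 at day 18 (SD, n = 3), a log2 change of -3.91. Of 11 genes listed as chaperones or assembly factors of ribosomal proteins, not all dedicated to them, 8, 8 and 9 fell. Only 1, TSR2, rose, by 0.34 in WT. At least 1 of the 11 is also in the list of TOP mRNAs, so these lists are not separate. NAP1L1 fell by 1.22, BCCIP by 0.63, and AAMP changed by -0.12 without passing (limma adjusted p = 0.24). MYC and TSR2 were singled out after their values were seen.

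Between constructs no member passed limma's test in any of 6 direct comparisons or 2 construct-by-day interactions. The share of all tested genes called in either direction was 0% for C14R against WT, 0.029% for deletion against WT and 0.058% for C14R against deletion at day 0. At day 18 it was 0.0363%, 0.0725% and 0.029%, and for the interactions 0% (C14R) and 0.0145% (deletion). At an unadjusted p under 0.05, 0, 6 and 10 members differed in these comparisons at day 0, against 2.81%, 6.22% and 9.84% of all genes. At day 18 it was 26, 13 and 14 members, against 11.1%, 11.4% and 11.2%, and in the interactions 17 and 3, against 5.73% and 7.36%. These counts depended on single libraries. With each of the 18 left out in turn they ranged over 0 to 1, 4 to 13 and 5 to 19 at day 0, over 18 to 38, 4 to 25 and 0 to 32 at day 18, and over 11 to 34 and 1 to 7 in the interactions. The shares of all genes changed too, not always in the direction of the members. In C14R against deletion at day 18, 8.87% were higher without C14R replicate 2 of day 18, against 5.04% as deposited. In C14R against WT at day 18, 4.45% were higher without WT replicate 1 of day 18, against 5.36%. The fit uses a single spread per gene for all groups, so counts at day 0 and day 18 cannot be set against each other. Small shifts of the class as a whole were present. At day 0, C14R libraries had the lowest summed member FPKM, 117038, 116673 and 118611, WT had 122428, 121070 and 119918, and the deletion had 123324, 124005 and 125088. The constructs thus did not overlap in the sum at day 0. As a share of the FPKM outside small RNA genes, C14R had 26.9% to 27.3%, WT 27.4% to 27.7% and the deletion 27.6% to 28%, so that WT and deletion then overlapped. Day 18 sums overlapped, with 63952 to 72005 in WT, 66413 to 70966 in C14R and 68195 to 69245 in the deletion.

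At day 0, C14R against deletion had 78 of 81 members on the lower side, with a median of -0.08 against 0.00 for all genes. Of the members, 51 (63%) had all 3 C14R libraries below all 3 deletion libraries, against 10.7% of all tested genes, and 10 were lower at an unadjusted p under 0.05 (12.3% of members, 5.15% of all genes). Among the members with the smallest p were RPL26L1 (-0.25) and RPL30 (-0.20), with limma adjusted p of 0.222 and 0.302. RPL26L1 had 42.5, 44 and 47.9 FPKM in C14R and 55.3, 52.8 and 52.4 in the deletion, without overlap. RPL30 had 1005, 1062 and 1051 in C14R and 1180, 1244 and 1151 in the deletion, again apart. With small RNA genes left out, the members' median was -0.03 and 3 members were lower at that p, and under quantile normalization it was -0.0045 with 1 lower. The 10 became 5 without deletion replicate 2 of day 0 and 6 without C14R replicate 3 or deletion replicate 1 or 3 of that day. Without C14R or WT replicate 1 of day 18, which enter through the shared estimate of the spread, they became 19 and 16. The share of all genes lower at that p was then 7.65% and 5.36%. It was 4.45% without deletion replicate 2 of day 0, 3.64% without C14R replicate 3, and 3.39% and 4.66% without deletion replicates 1 and 3. With small RNA genes left out it was 2.33%, and under quantile normalization 4.29%. Deletion against WT had 65 members on the higher side (median 0.04), 35 of them without overlap (43.2% of members, 8.68% of all genes). RPL26L1 (0.21), RPL30 (0.19) and RPL28 (0.16) had the smallest p there, each with a limma adjusted p of 0.759. The median was 0.02 with small RNA genes left out, and under quantile normalization it turned to -0.0084, with 2 members higher and 1 lower at an unadjusted p under 0.05. At that p 6 members were higher as deposited, and 12 and 10 without replicate 1 of day 18 of C14R or WT. Of all genes, 3.16%, 5.05% and 3.41% were higher in these fits. C14R against WT had 70 on the lower side (median -0.03), 23 of them without overlap (28.4% of members, 5.33% of all genes), and 0 at an unadjusted p under 0.05. RPL35A (-0.13), RPL19 (-0.07) and RPL12 (-0.07) had the smallest p, with limma adjusted p of 1. That median was -0.01 with small RNA genes left out and -0.007 under quantile normalization. The summed FPKM of the mesenchymal markers lay in the same order as the members' sums at day 0, 1093 to 1124 in C14R, 1143 to 1154 in WT and 1214 to 1286 in the deletion, without overlap, and its part in these shifts was not tested. These comparisons share libraries. Members in a library also share its scaling, so these counts are not made of independent genes.

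At day 18, C14R against WT had 57 members on the higher side (median 0.05), 22 of them at an unadjusted p under 0.05 (27.2% of members, 5.36% of all genes), and 4 were lower at that p. Of the members, 14 (17.3%) had all C14R libraries above all WT libraries, against 5.44% of all genes. Single libraries moved the shift. Without WT replicate 1 of day 18 the median was 0.10 with 38 members higher at that p and 0 lower, without WT replicate 2 it was 0.04 with 13 higher, and without WT replicate 3 it was 0.015 with 14 higher and 7 lower. Without C14R replicate 3 it was 0.03 with 20 higher and 9 lower. In these fits 4.45%, 4.58%, 5.75% and 6.38% of all genes were higher, in the order given. Other settings left the members' median near 0.05. It was 0.06 without C14R replicate 1, with 22 higher and 2 lower (all genes: 6.13% higher). Under quantile normalization it was 0.06 with 20 higher and 7 lower (5.68%). With small RNA genes left out it was 0.05 with 25 higher and 5 lower (4.81%). The proliferation genes lay on the same side, 18 of 18 higher in C14R than in WT with a median of 0.20 and 11 at an unadjusted p under 0.05. Their summed FPKM was 224 to 233 in WT, 242 to 290 in C14R and 238 to 251 in the deletion, and their part in the result was not tested. RPS4X, an X-linked small subunit gene, had 1147, 1097 and 1090 FPKM in WT and 1316, 1215 and 1241 in C14R. The C14R libraries were all higher, with a log2 difference of 0.18 (SE 0.04, limma adjusted p = 0.134). RPL36A had 513, 476 and 477 in WT and 680, 535 and 551 in C14R, a difference of 0.26 (limma adjusted p = 0.142). RPL5 had 554, 517 and 535 in WT and 657, 560 and 603 in C14R, a difference of 0.18 (limma adjusted p = 0.168). In all 3 genes C14R replicate 1 was the highest library, and without it the differences were 0.14, 0.15 and 0.12. Without C14R replicate 2 of day 18, 5 members passed the threshold (RPL22, RPL26, RPL36A, RPL5 and RPS4X). With limma's array weights 8 did, among them RPL36A, RPL5, RPS2 and RPS4X, and none passed without replicate 1 of C14R. How many of all genes passed in these fits is not given here. At an unadjusted p under 0.05, 26 members were higher without C14R replicate 2 (32.1%, against 7.65% of all genes). It was 40 under array weights (49.4%, against 9.02%). The members named in these lists were seen before they were named.

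Deletion against WT at day 18 had 66 members on the higher side (median 0.04), 11 of them without overlap (13.6% of members, 10.4% of all genes). At an unadjusted p under 0.05, 12 members were higher (14.8%, against 5.77% of all genes). WT libraries decided this shift: the median was 0.086 with 25 higher without WT replicate 1, 0.03 with 6 higher without replicate 2, and 0.0048 with 2 higher and 2 lower without replicate 3. The 12 also became 6 and 5 without deletion replicate 1 and 2 of day 18, and 19 without C14R replicate 1. Of all genes, 6.99%, 4.59% and 3.69% were higher without WT replicates 1, 2 and 3. It was 3.84% and 4.86% without deletion replicates 1 and 2, and 8.61% without C14R replicate 1. Under quantile normalization the median was 0.02 with 8 higher. Of the proliferation genes 15 of 18 were higher in the deletion than in WT (median 0.11, 5 at an unadjusted p under 0.05), and their part was not tested. RPS2 (0.17), RPL35 (0.18) and RPS27L (-0.26) had the smallest p, with limma adjusted p of 0.262, 0.297 and 0.311. RPS27L was at 32, 29.2 and 29.3 FPKM in WT and at 21.6, 27.5 and 26.5 in the deletion, where every library was lower. C14R against deletion at day 18 was split evenly, 38 against 43 (median -0.02). RPS29 (-0.44), RPS26 (0.14) and RPL7L1 (0.13) had the smallest p, with limma adjusted p of 0.42, 0.42 and 0.424. Without C14R replicate 1 of day 18 these differences were -0.21, 0.07 and 0.088. The 14 members at an unadjusted p under 0.05 became 0 without that library, 28 without C14R replicate 2 and 32 without replicate 3, and 7, 6 and 4 without deletion replicates 1, 2 and 3. The share of all genes at that p moved too. It was 2.35% higher and 2.71% lower without C14R replicate 1, against 5.04% and 6.12% as deposited. Without C14R replicates 2 and 3 it was 8.87% and 11.7%, and 7.57% and 9.22%. Without the deletion replicates it was 3.57% and 4.6%, 3.94% and 4.06%, and 4.19% and 5.45%. The members' median turned to 0.02 under quantile normalization and under array weights. In the interactions, which set the change with differentiation in a variant against that in WT, the smallest p included those of RPS4X (0.18) and RPL36A (0.28) for C14R, each with a limma adjusted p of 0.707, and without C14R replicate 1 of day 18 they were 0.15 and 0.18. For the deletion they were RPS27L (-0.36), RPL26L1 (-0.24) and RPL22L1 (0.26), with limma adjusted p of 0.548, 0.583 and 0.633. The C14R interaction was positive for 64 of 81 members, with 17 at an unadjusted p under 0.05 (21% of members, 2.99% of all genes), and a median of 0.09. Without C14R replicate 1, 2 or 3 of day 18 the number higher at that p was 20, 26 and 14, and without WT replicate 1, 2 or 3 of day 18 it was 34, 11 and 11, with medians of 0.14, 0.06 and 0.04. Without C14R replicate 3 the median was 0.06, and under quantile normalization 10 were higher. Of all genes, 4.15%, 4.62% and 4.01% were higher without C14R replicates 1, 2 and 3 of day 18. Without WT replicates 1, 2 and 3 of day 18 it was 2.99%, 2.64% and 3.25%, and under quantile normalization 2.93%. All 18 proliferation genes had a positive C14R interaction too (median 0.19), and their part was not tested.

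**Figure D5:**
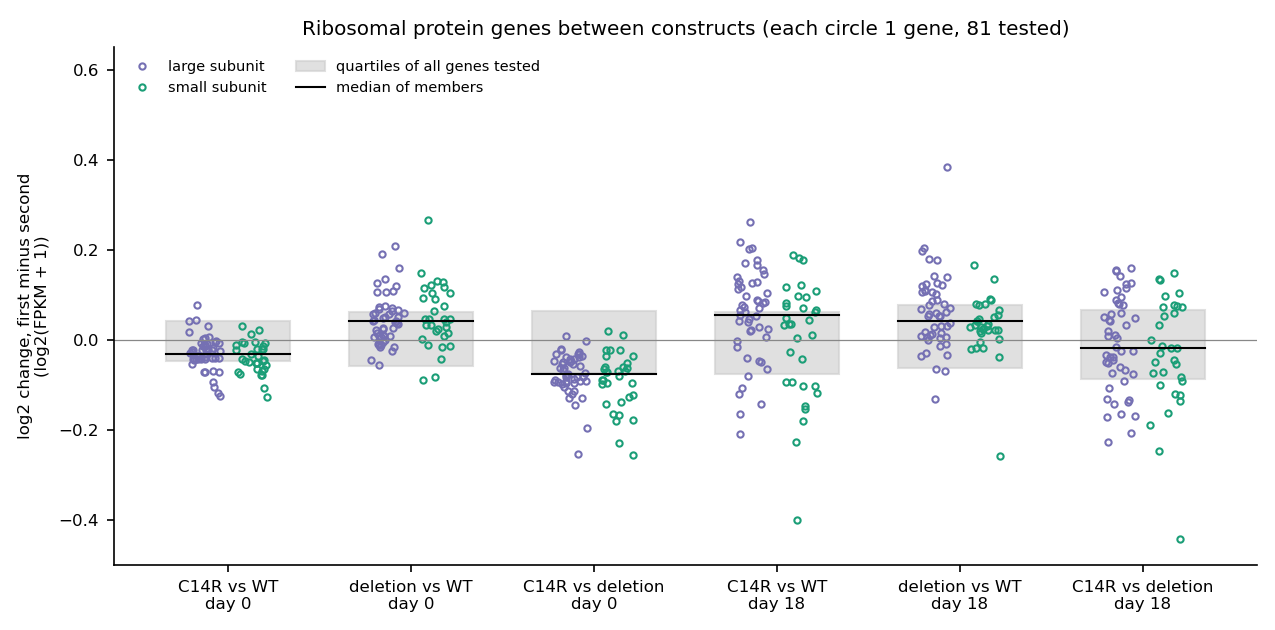
The log2 difference of each of the 81 tested members (circles; violet large, green small subunit) between constructs at day 0 and day 18, with the members' median (black line) and the quartiles of all tested genes (grey). Circles sit mostly below 0 for C14R against deletion at day 0 (78 of 81) and mostly above 0 for deletion against WT at day 0 (65 of 81).

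The members also differed in how closely replicates lay together. The median coefficient of variation of members was 2.13% in WT, 2.27% in C14R and 2% in the deletion at day 0. At day 18 it was 6.51% in WT, 7.69% in C14R and 2.24% in the deletion. Over all genes above 100 FPKM it was 2.49%, 2.88% and 2.51% at day 0 and 5.05%, 7% and 2.52% at day 18, a similar rise. In WT at day 18, replicate 1 was the highest of the 9 day 18 libraries for 28 members and replicate 3 the lowest for 35. Differences that involve WT or C14R at day 18 are therefore measured with less precision than those at day 0. The fit used a single spread per gene over the 6 groups, so the printed SE and p-values do not carry this. They tend to be too small for C14R against WT at day 18 and too large between constructs at day 0. Counts at an unadjusted p are therefore not measured alike at day 0 and day 18.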

How the data were processed

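Gene expression was measured by RNA-seq after ribosomal RNA depletion, per the labels' protocols. The authors deposited a table of FPKM per gene symbol and library. Tools named in the submitters' processing notes, with no role or order, are TopHat2, STAR and Cufflinks 2.2.1, with build hg38; annotation and strand use are not given in the sources used here. FPKM carry no counts, so absolute depth is unknown and no counting interval is given. Tests used limma 3.58.1 in R 4.3.3 on log2(FPKM + 1), a pseudocount of 1, over 13785 genes with mean FPKM of at least 1, in a single fit of 6 groups and 18 libraries with a variance trend. P-values were adjusted by Benjamini-Hochberg over all tested genes (threshold 0.05). Fold changes on this scale understate low genes. The fitting was tested on simulated data. Annotation was GENCODE release 29 (all 84 members matched); start windows came from RefSeq.

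Named genes were the 3 highest and lowest members, the 5 largest changes with day, the 3 smallest p-values between constructs, paralogs with parents, members with known roles and the highest genes of other lists. The members and lists were chosen with earlier results of these data known. Some genes are not reported here.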

Additional observations from a re-analysis of the deposited data

How the results depend on the processing

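Each result was recomputed with 0.1 as pseudocount, unfiltered genes, a mean of at least 5 FPKM, median-of-ratios scaling, quantile normalization, small RNA genes left out, no variance trend, array weights, the replicate block, only the libraries compared, a log2 change of at least 1, and each of the 18 libraries left out. Counts of members called with day stayed within 1.5 times except under the log2 change of at least 1 (29 in WT, 22 in C14R, 24 in the deletion); leaving out libraries gave 79 to 81, 77 to 80 and 81. Called members were 8 in C14R against WT at day 18 under array weights, 1 in deletion against WT at day 18 and 1 in C14R against deletion at day 0. Leaving out libraries gave 0 to 5 in the first of these and 0 in the other comparisons of constructs. How many of all genes were called under these settings is not given here. At an unadjusted p under 0.05 with array weights, 27 members were higher in deletion against WT at day 18 (33.3%, against 9.38% of all genes). In C14R against deletion at day 0, 31 were lower at that p (38.3%, against 9.52%). Array weights also raised the share of all genes at an unadjusted p under 0.05 in C14R against WT at day 18. There 9.02% were higher and 9.45% lower, against 5.36% and 5.77% as deposited.

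Leaving out libraries moved the log2 ratio of RPL39L to RPL39 between 0.15 and 0.26 and that of RPL26L1 to RPL26 between 0.12 and 0.18; a pseudocount of 1 gave 0.27 for RPL39L (exact permutation, adjusted p = 0.0156). Without paralogs the large to small ratio of the deletion at day 18 was 1.27. Equal replicate numbers did not pair libraries: 6 of 45 same-number pairs correlated above 0.1, and 2 of 18 libraries correlated best with their own number. The replicate block gave 81, 78 and 81 members called with day and 0 between constructs, and with pairing the RPL26L1 ratio of 0.15 had an adjusted p of 0.0586 by exact sign flips.

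Quantile normalization turned these log2 changes with day upward: RPL15 to 0.12 in WT, 0.23 in C14R and 0.19 in the deletion, RPL38 to 0.31, 0.38 and 0.23, RPL7 to 0.13, 0.22 and 0.11, RPS15 to 0.45, 0.45 and 0.43, and RPS24 to 0.38, 0.48 and 0.43. It also turned RPL26 to 0.13 in C14R and 0.12 in the deletion, RPS4X to 0.047 and 0.068, and RPS26 to 0.086 in C14R. Members without values of their own were called higher there too: RPL17 and RPL6 in all 3 constructs, RPL27 in WT, and RPL36 and RPL8 in C14R and the deletion. With small RNA genes left out, RPL15 was at 0.058 in C14R and 0.012 in the deletion, RPL38 at 0.018 in WT, and RPS15 at 0.059 in WT and 0.035 in the deletion. The cause was not tested. Of 3567 values of single named genes under an alternative, 3438 kept direction and side of the threshold, 82 no longer passed it (54 of them at the log2 change of at least 1) and 19 newly passed it.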
